A study of Mus musculus with 8 samples.

Results

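The 8 genes described here carry glucose and fructose from the blood to pyruvate in the mouse liver. They were taken by symbol from the deposited gene table, which lists 45777 genes, and all 8 were found there. The glucose transporter gene Slc2a2 and the regulator gene Gckr act at entry. The product of Khk phosphorylates fructose, and Pfkl, Pfkfb1 and Pfkfb3 act at the phosphofructokinase step. Pklr acts at the last step, and Hk2 is a hexokinase that healthy hepatocytes use little. All 8 were among the 15686 genes that passed the filter on low counts. No member was past the threshold between genotypes.

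Liver RNA came from male C57BL6 mice that went on a high-fat diet (HFD) at 8 weeks of age for 10 weeks, with 4 libraries from C2-AKT mice and 4 from controls. C2-AKT mice were made by crossing ROSA26-C2-AKT with Alb-Cre mice, so Cre acts where the albumin promoter is active, mainly in hepatocytes, while the liver RNA came from all its cell types. Controls carry the genotype label "wild type; C2-AKT (-/-)", which does not say whether they carried Alb-Cre. The labels do not state the AKT isoform of the construct. The titles of the C2-AKT libraries hold the string "C2AKT1F", whose meaning is not given. Whether every library is from a separate mouse is not stated in the labels. The p-values therefore speak only of how these libraries varied, which may be technical. In whole liver, fewer cells of a type and less RNA per cell cannot be told apart.

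In hepatocytes, glucose crosses the membrane through GLUT2, the product of Slc2a2, and is then phosphorylated, a step that the regulatory protein encoded by Gckr restrains between meals. Fructose is phosphorylated by ketohexokinase, the product of Khk, and so enters below phosphofructokinase. Insulin acts on hepatic glycolysis through AKT, while Pklr transcription also responds to sugar through the factor ChREBP, encoded by Mlxipl.

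Pklr has a pair of start sites, and its product differs between them: the upstream one is used in red cells and the downstream one in liver. Their promoters are shown because the deposited value sums both, and those of Khk and Gckr because each holds 2 of the motifs searched. Each covers 250 bases before to 50 after a start site in RefSeq's GRCm38.p6 annotation, on the plus strand. Capitals mark matches to any of the following motifs, searched on both strands. CACGTG is an E-box, which basic helix-loop-helix factors bind. One arm of the site for HNF1, a factor of liver and kidney, reads GTTAAT. Factors of the GATA family, active in blood cells and liver, bind AGATAAG. The carbohydrate response element joins a pair of E-box-like arms set 5 bases apart, and is the site of ChREBP.
Pklr, upstream start, chr3:89135892-89136191: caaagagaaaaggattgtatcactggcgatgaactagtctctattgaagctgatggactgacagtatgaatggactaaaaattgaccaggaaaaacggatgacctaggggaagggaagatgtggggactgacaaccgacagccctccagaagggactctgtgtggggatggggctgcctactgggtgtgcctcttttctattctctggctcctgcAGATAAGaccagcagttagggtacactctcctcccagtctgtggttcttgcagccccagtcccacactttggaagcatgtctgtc
Pklr, downstream (liver) start, chr3:89136373-89136672: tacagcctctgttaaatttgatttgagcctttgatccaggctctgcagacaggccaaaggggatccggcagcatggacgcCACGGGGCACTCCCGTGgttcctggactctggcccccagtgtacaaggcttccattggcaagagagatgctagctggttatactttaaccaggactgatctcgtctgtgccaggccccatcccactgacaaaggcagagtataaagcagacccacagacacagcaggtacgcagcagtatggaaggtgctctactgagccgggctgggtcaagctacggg
Khk, chr5:30921309-30921608: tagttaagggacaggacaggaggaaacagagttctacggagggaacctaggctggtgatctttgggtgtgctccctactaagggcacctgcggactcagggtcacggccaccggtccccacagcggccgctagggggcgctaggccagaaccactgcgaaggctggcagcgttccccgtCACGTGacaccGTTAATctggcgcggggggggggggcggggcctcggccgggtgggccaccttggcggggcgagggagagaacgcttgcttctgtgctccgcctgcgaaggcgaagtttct
Gckr, chr5:31297313-31297612: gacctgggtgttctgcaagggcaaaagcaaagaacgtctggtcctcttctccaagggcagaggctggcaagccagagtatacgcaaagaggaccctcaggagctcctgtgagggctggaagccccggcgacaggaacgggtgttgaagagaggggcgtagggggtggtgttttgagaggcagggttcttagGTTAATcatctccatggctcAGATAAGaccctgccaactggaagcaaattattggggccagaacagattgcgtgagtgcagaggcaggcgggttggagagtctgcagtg

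The liver promoter of Pklr held the carbohydrate response element, which begins 170 bases before the start site. Of the 32841 promoters of this length in the table, 15 held that motif (0.0457%). The upstream Pklr promoter held AGATAAG, as did Gckr, and this motif was present in 3.04% of all promoters. Khk held CACGTG 71 bases and GTTAAT 60 bases before its start, and Gckr held GTTAAT at 59 bases. CACGTG occurred in 7.15% of all promoters and GTTAAT in 7.1%. Among the 13 promoters listed for the 8 genes, 2 held CACGTG, 3 GTTAAT, 3 AGATAAG and 1 the long element, with no overlap between matches. The motifs were chosen with these sequences in view, and a match does not show binding. The pattern searched for the long element let any base stand at 1 position of each arm and between the arms. It had 0 matches in Txnip and 0 in Arrdc4, genes induced by glucose. Its matches are therefore not taken as the full set of genes with a site for ChREBP, whose activity was not tested. Of 14 genes with a match to this pattern in a promoter, 7 were tested. Among these 7, 2 had a positive log2 fold change (Pklr itself at 0.42 and Irak1bp1 at 0.06) and 0 were called. Of all 15686 genes tested, 7539 had a positive log2 fold change and 0.0255% were called.

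Total counts ran from 51.4 to 63.8 M per library. C2-AKT replicate 5 stood apart: 10 genes of the pancreatic acinar cell took 9.29% of its counts, against 0.000747% to 0.00275% in the other 7 libraries. All 8 endocrine pancreas markers were counted in it (68.7 CPM in sum, where CPM is a count scaled by the library total) and none of them in the other libraries, where the limit is 3 counts or at most 0.0583 CPM each. Genes removed by the filter held 17.2% of its counts. Titles also differ in their ending: control replicate 5 and C2-AKT replicate 2 have none. The ending is "_1" in 5 libraries and "_2" in C2-AKT replicate 5, and the labels do not say what it means. A further number in the titles is the same within each genotype and differs between genotypes. What it marks is not stated, and it cannot be told apart from genotype. The summed hepatocyte markers ran from 78147 to 99983 CPM in control and from 75211 to 100679 CPM in C2-AKT libraries. The noncoding Gt(ROSA)26Sor at the targeted locus ran from 4.80 to 7.43 CPM in control and from 0 to 0.693 CPM in C2-AKT libraries. A count of 0 in the latter allows up to 0.0470 CPM (edgeR log2 fold change -3.90 ± 0.65, adjusted p = 0.181). Akt1, Akt2 and Alb had log2 fold changes of 0.04, -0.14 and 0.23, with 0 called. Below, CPM refers instead to the counts in tested genes after TMM scaling, a correction for library composition.

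Across all genes, edgeR's quasi-likelihood test called 4 genes, or 0.0255% of those tested, at an adjusted p under 0.05. None of the 8 members was among them, and DESeq2 and limma-voom called 0 members as well. At an unadjusted p under 0.05, 1 member (Pklr) passed, where 5.13% of all genes did. That p ran from 0.0119 to 0.124 over the alternatives and was above the threshold without control replicate 2 (0.107) or 5 (0.0981) and without C2-AKT replicate 3 (0.0602), 4 (0.124) or 5 (0.0572). The C2-AKT and control libraries overlapped for each of the 8 members, while 2.98% of all genes showed no overlap (1.35% with C2-AKT higher and 1.63% with C2-AKT lower). The log2 fold changes (C2-AKT over control) were positive for 5 members and negative for 3. Their median was 0.06, beside -0.01 over all genes tested. The median size without sign was 0.14 for the members and 0.11 for all genes.

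**Figure D1:**
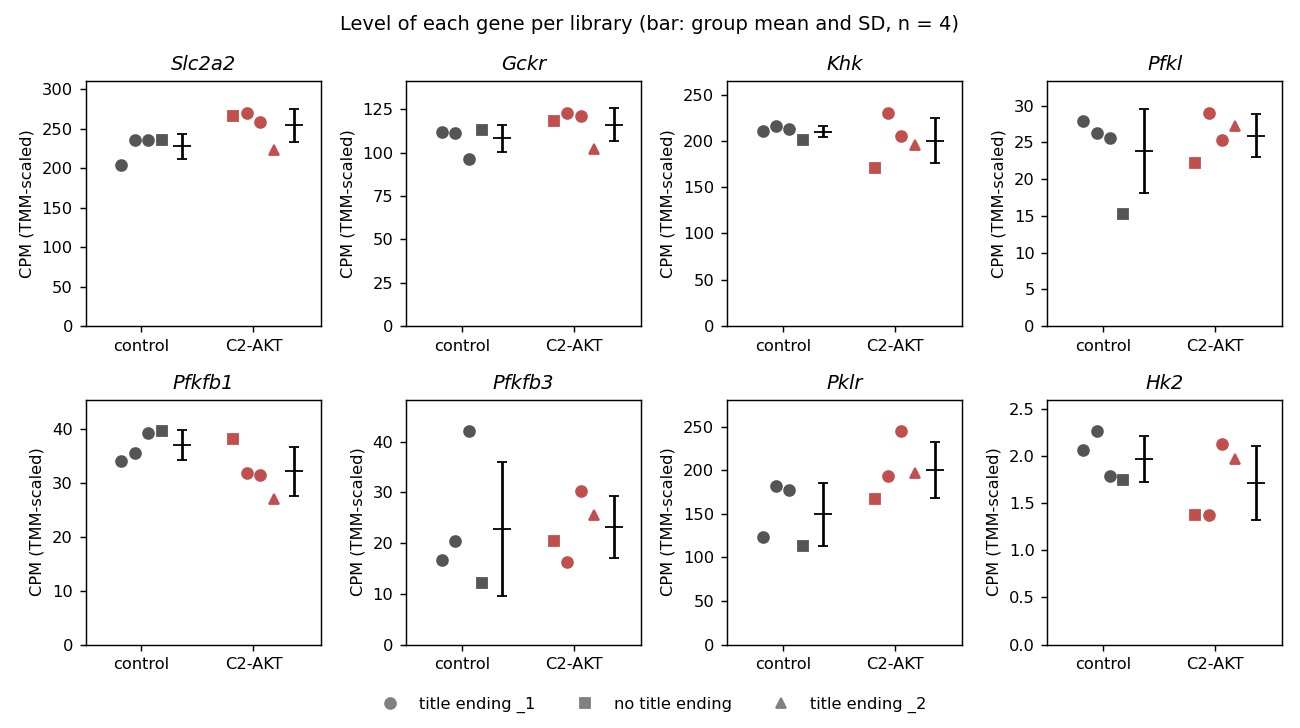
TMM-scaled CPM (vertical axes from 0) of the 8 genes in each control (grey) and C2-AKT (red) library, with marker shape by title ending and black bars for group mean and SD (n = 4). The groups overlap in every panel, and Pklr shows the largest upward shift, from 149 to 200.4 CPM.

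Slc2a2 encodes the transporter that lets glucose pass in both directions (chromosome 3, 28697903 to 28728361, plus strand, GRCm38). It stood at 204, 236, 236 and 236 CPM in control replicates 2 to 5. In C2-AKT replicates 2 to 5 it stood at 266, 270.2, 259 and 223 CPM. The C2-AKT replicates 2, 3 and 4 lay above all controls, and C2-AKT replicate 5, which held pancreatic transcripts, lay within the control range. The group means were 228 ± 15.9 CPM (SD, n = 4) for control and 255 ± 21.3 CPM for C2-AKT, a log2 fold change of 0.16 ± 0.10 (SE; edgeR adjusted p = 0.9999). The 95% interval of the ratio ran from 0.953 to 1.31. Without C2-AKT replicate 5 the log2 fold change was 0.22 ± 0.10 (edgeR adjusted p = 0.9999), and among the titles ending in "_1" 0.23 ± 0.10 (edgeR adjusted p = 0.636). Slc2a2 is also a gene of the insulin-producing beta cell. That library was the lowest of its group for it, and the part of pancreatic RNA in the value was not tested.

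Gckr (chromosome 5, 31297266 to 31327302, plus strand) was measured at 112, 111, 96.4 and 113 CPM in control replicates 2 to 5. Its C2-AKT values were 118, 123, 121 and 102 CPM in the same order. As for Slc2a2, C2-AKT replicates 2, 3 and 4 lay above every control and C2-AKT replicate 5 did not. The group means were 108 ± 7.91 and 116 ± 9.63 CPM (log2 fold change 0.10 ± 0.10, edgeR adjusted p = 0.9999), and the 95% interval of the ratio ran from 0.925 to 1.24. Without C2-AKT replicate 5 the log2 fold change was 0.16 ± 0.10 and without control replicate 4 it was 0.05.

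Khk lies on the same chromosome (30921436 to 30931248, plus strand). Its controls varied least for their level, at 210.1, 216, 213 and 201 CPM in replicates 2 to 5. In C2-AKT replicates 2 to 5 it stood at 171, 230.2, 205 and 195 CPM. The C2-AKT libraries thus reached below and above the whole control range. The means were 210.1 ± 6.37 and 200.4 ± 24.5 CPM (log2 fold change -0.07 ± 0.11, edgeR adjusted p = 0.9999), with a 95% interval of the ratio from 0.81 to 1.12. C2-AKT replicate 2, one of the libraries without a title ending, was the lowest. Leaving it out gave a log2 fold change of 0.00021. Khk makes isoforms by alternative splicing that differ in their affinity for fructose, and the gene value does not separate them.

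Pfkl encodes the liver subunit of phosphofructokinase, which commits sugar to glycolysis (chromosome 10, 77986947 to 78009807, minus strand). Control replicates 2 to 5 stood at 27.9, 26.3, 25.6 and 15.3 CPM. C2-AKT replicates 2 to 5 stood at 22.2, 29, 25.3 and 27.3 CPM. The 2 lowest values came from the 2 libraries without a title ending, and the 5 libraries ending in "_1" lay between 25.3 and 29.0 CPM. The means were 23.8 ± 5.72 and 25.9 ± 2.92 CPM (log2 fold change 0.12 ± 0.18, edgeR adjusted p = 0.9999), and the 95% interval of the ratio ran from 0.83 to 1.43. The direction turned without control replicate 5, to -0.04, and among the titles ending in "_1" the log2 fold change was 0.03 ± 0.10. With the ending as a term it was 0.17 ± 0.11 (edgeR adjusted p = 0.723).

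Pfkfb1 and Pfkfb3 encode bifunctional enzymes that make and break down the sugar bisphosphate that activates phosphofructokinase. Pfkfb1, the liver form, is on chromosome X (150587445 to 150643878, plus strand). It stood at 34.0, 35.6, 39.4 and 39.6 CPM in control replicates 2 to 5 and at 38.3, 31.9, 31.6 and 27.1 CPM in C2-AKT replicates 2 to 5. Of the C2-AKT libraries, 3 lay below all controls, and C2-AKT replicate 2 lay inside the control range. The means were 37.2 ± 2.77 and 32.2 ± 4.59 CPM (log2 fold change -0.21 ± 0.11, edgeR adjusted p = 0.995), with a 95% interval of the ratio from 0.728 to 1.03. The log2 fold change was -0.13 without C2-AKT replicate 5, the lowest library, and -0.30 without C2-AKT replicate 2. Pfkfb1 overlaps Apex2 (6.15 to 8.31 CPM of all counts), and reads shared between them cannot be told apart where counting ignored strand.

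Pfkfb3, the inducible form (chromosome 2, 11471430 to 11554071, minus strand), varied most among the members. Control replicates 2 to 5 stood at 16.7, 20.4, 42.0 and 12.1 CPM. C2-AKT replicates 2 to 5 stood at 20.5, 16.2, 30.3 and 25.6 CPM. The highest and the lowest library were both controls, 3.46-fold apart, and all 4 C2-AKT libraries lay between them. Its SD of log2 CPM within groups was 0.60, above that of 98.9% of the 1000 genes nearest to it in level. The means were 22.8 ± 13.2 and 23.1 ± 6.12 CPM (log2 fold change 0.02 ± 0.35, edgeR adjusted p = 0.9999). The 95% interval of the ratio, from 0.592 to 1.74, leaves room for a sizeable change in either direction that these libraries could miss. Without control replicate 4 the log2 fold change was 0.50, and without control replicate 5 it was -0.19. Per length (TPM), the ratio of Pfkfb3 to Pfkfb1 was 0.251 ± 0.134 in controls and 0.302 ± 0.104 with C2-AKT (exact permutation p = 0.6, two-sided).

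Pklr encodes the pyruvate kinase of liver and red cells (chromosome 3, 89136122 to 89146815, plus strand), and its liver promoter is the one with the carbohydrate response element. It stood at 124, 182, 178 and 113 CPM in control replicates 2 to 5 and at 167, 194, 244 and 196 CPM in C2-AKT replicates 2 to 5. The 3 highest libraries were C2-AKT and the 2 lowest were controls, while C2-AKT replicate 2 lay below control replicates 3 and 4. The means were 149 ± 35.7 and 200.4 ± 32.2 CPM, a log2 fold change of 0.42 ± 0.18 and a ratio of 1.34 (95% interval 1.02 to 1.77). The unadjusted edgeR p was 0.0400 and the adjusted p 0.954, and by p it ranked 657 of the 15686 genes. Among titles ending in "_1" the log2 fold change was 0.45 ± 0.18 (edgeR adjusted p = 0.620), with the ending as a term 0.48 ± 0.15 (0.470), and without C2-AKT replicate 5 0.43 ± 0.20 (0.9999). Summed red cell markers ranged from 187 to 376 CPM of all counts in control and from 239 to 305 CPM in C2-AKT libraries. Of these 8 markers, 6 were tested and 0 were called. Reads of Hcn3, which overlaps Pklr, reached at most 0.741 CPM.

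Hk2, a hexokinase typical of muscle and of growing cells (chromosome 6, 82725025 to 82774454, minus strand), had the lowest level of the 8 members. Control replicates 2 to 5 had 110, 118, 113 and 91 reads, and C2-AKT replicates 2 to 5 had 74, 73, 141 and 91. In CPM the controls stood at 2.07, 2.26, 1.79 and 1.75 and the C2-AKT libraries at 1.38, 1.37, 2.13 and 1.97. C2-AKT replicates 2 and 3 lay below all controls, and the others lay among them. The means were 1.97 ± 0.243 and 1.71 ± 0.393 CPM (log2 fold change -0.20 ± 0.20, edgeR adjusted p = 0.9999), with a 95% interval of the ratio from 0.636 to 1.20. Leaving out C2-AKT replicate 3 gave -0.11 and leaving out C2-AKT replicate 4 gave -0.32. Skeletal muscle markers summed to 0.225 to 0.506 CPM of all counts in control and to 0.423 to 0.618 CPM in C2-AKT libraries. Their fast myosin genes Myh1 and Myh4 were at or near 0 throughout. Hk2 lies 30.3 Mb from the targeted ROSA26 locus on the same chromosome.

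**Figure D2:**
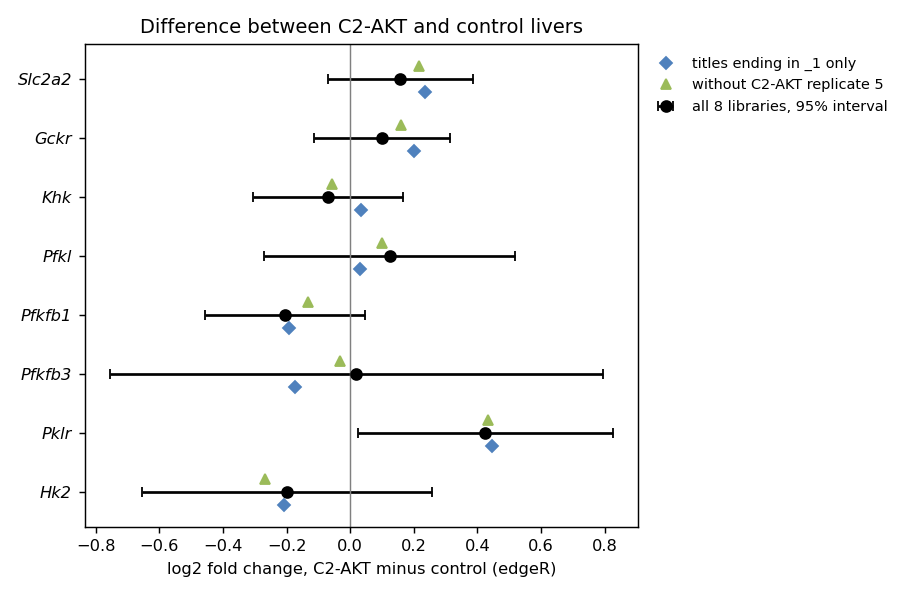
Log2 fold change of each gene, C2-AKT minus control (horizontal axis), from edgeR with all 8 libraries (black circles, 95% intervals), from the 5 libraries with titles ending in "_1" (blue diamonds) and without C2-AKT replicate 5 (green triangles). The interval of Pklr alone lies above 0 before adjustment, and that of Pfkfb3 is the widest, from -0.76 to 0.80.

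Levels per length (TPM, which also divides by transcript length) ordered the members the same way in most libraries. In control livers Khk had the highest TPM (236 ± 18.0), followed by Slc2a2 (151 ± 10.4), Pklr (93.9 ± 25.0), Gckr (76.7 ± 5.90), Pfkfb1 (30.8 ± 1.81), Pfkl (10.8 ± 2.95), Pfkfb3 (7.89 ± 4.70) and Hk2 (0.604 ± 0.0921). The control ranges of neighbours overlapped for Pklr and Gckr and for Pfkl and Pfkfb3, and for no other neighbours in this order. In C2-AKT libraries the ranges also overlapped for Khk (181 to 277) and Slc2a2 (129 to 191) and for Slc2a2 and Pklr (99.6 to 171), and those of Pklr and Gckr (62.2 to 97.7) did not. C2-AKT replicate 5 holds lower TPM of liver genes by construction, since pancreatic genes take part of its sum. Within every library Khk was highest, Slc2a2 came next and Hk2 was last. Gckr stood above Pklr in control replicates 2 and 5, and Pfkfb3 above Pfkl in control replicate 4, while the 4 C2-AKT libraries shared 1 order, with Pklr above Gckr.

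The liver isoform was the main one of phosphofructokinase and of pyruvate kinase. Pfkl made up 59.6% ± 3.04 (SD, n = 4) of the phosphofructokinase TPM in controls and 59.98% ± 1.78 with C2-AKT (exact permutation p = 0.8, two-sided). The muscle form Pfkm stood at 6.01 ± 1.01 and 6.75 ± 1.58 TPM. Pklr made up 87.7% ± 2.05 of the TPM of Pklr and Pkm in controls and 90.3% ± 1.03 with C2-AKT (exact permutation p = 0.114). Its share lay between 85.7% and 90.6% in control and between 89.8% and 91.9% in C2-AKT libraries. Adjusted over the 5 ratios tested, of which 3 are given here, no p was below 0.571, and the smallest p that this design allows is 0.0286.

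**Figure D3:**
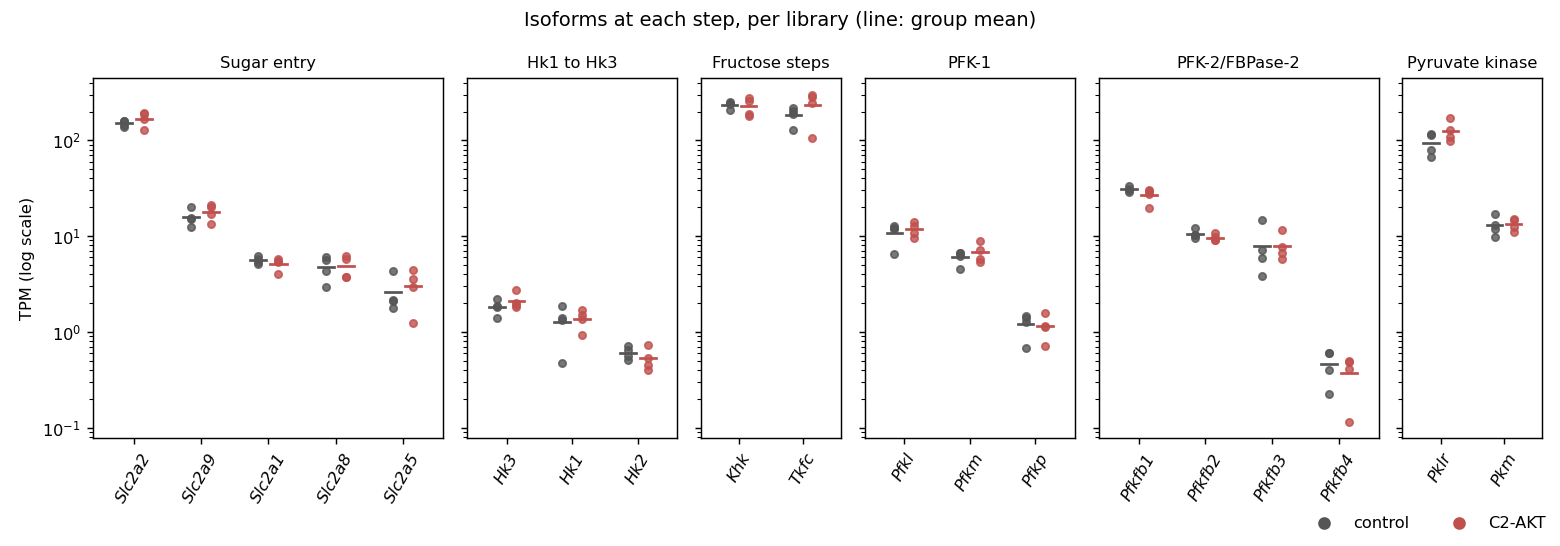
TPM (vertical log axis) of members and other genes of the same steps in control (grey) and C2-AKT (red) libraries, 1 point per library, with lines at group means. Slc2a2, Pfkl, Pfkfb1 and Pklr have the highest group means in their panels, and Hk2 lies below 1 TPM in all 8 libraries.

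No gene around the members was called either. Of 77 genes in 8 lists of the pathway, 71 were tested and 0 were called by edgeR, with 4 at an unadjusted p under 0.05 (5.13% of all genes tested were), and 42 had positive and 29 negative log2 fold changes (median 0.04). Among the other glycolytic enzymes, 12 of 14 were tested, with 0 higher, 0 lower and a median of 0.04. The enolase gene Eno1 stood at 364 ± 14.2 CPM in controls and 388 ± 37.8 CPM with C2-AKT. The log2 fold change was -0.15 for Aldoa and -0.16 for Eno3. Among the other hexokinases, 4 of 5 were tested and 0 called, with a log2 fold change of 0.22 for Hk3, 0.13 for Hk1 and -0.04 for Adpgk. The other phosphofructokinase isoforms, 4 of 4 tested with 0 called, ranged from -0.25 for Pfkfb4 through -0.11 for Pfkfb2 and 0.04 for Pfkp to 0.16 for Pfkm.

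Of the other sugar transporters, 6 of 9 were tested and 0 called, with a median of 0.15 that was 0.020 without C2-AKT replicate 4 and 0.23 without control replicate 4. Slc2a9 (15.9 TPM in control) had a log2 fold change of 0.17, Slc2a1 -0.13, Slc2a5 0.22 and Slc2a3 0.17. The 6 fructose and polyol enzymes gave 0 calls and a median of 0.07. Tkfc, which phosphorylates the glyceraldehyde made from fructose, stood at 249 ± 45.4 CPM in controls and 312 ± 107 CPM with C2-AKT. C2-AKT replicates 3, 4 and 5 lay between 359 and 375 CPM for it and above all controls, and C2-AKT replicate 2 was the lowest library at 152 CPM, as it was for Khk. Sord had a log2 fold change of 0.18, Glyctk 0.09 and Akr1b3 -0.06.

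After pyruvate, 17 of 17 genes were tested and 0 called (median -0.04). Pdk1, a kinase that switches off pyruvate dehydrogenase, stood at 46.5 ± 3.24 CPM in controls and 54.6 ± 3.69 CPM with C2-AKT (log2 fold change 0.23 ± 0.09, edgeR adjusted p = 0.891). It was the 1 gene of the 71 whose groups did not overlap, where 2.98% of all genes tested did not. Pdp2, a phosphatase that switches the complex on, stood at 49.99 ± 6.30 and 40.9 ± 4.28 CPM (-0.29 ± 0.11, edgeR adjusted p = 0.923). Ldha had a log2 fold change of -0.27 and the lactate and pyruvate transporter gene Slc16a7 0.25. The 7 opposing enzymes of glucose production gave 0 calls and a median of 0.18, which was 0.036 without C2-AKT replicate 5. G6pc, whose product frees glucose for release, stood at 150.1 ± 65.0 and 235 ± 59.5 CPM (0.64 ± 0.29, edgeR adjusted p = 0.959), and Fbp1, which reverses the phosphofructokinase step, had a log2 fold change of 0.18. The log2 fold changes of Fbp2 (0.79) and Pck2 (0.60) rest on C2-AKT replicate 5, the library with the most pancreatic transcripts. Fbp2 stood at 1.28 CPM there, at 0.224, 0.0753 and 0.362 CPM in C2-AKT replicates 2 to 4, and at 0.1505 to 0.441 CPM in controls. Pck2 stood at 9.46 CPM there, at 1.01, 2.39 and 1.98 CPM in C2-AKT replicates 2 to 4, and at 1.44 to 2.86 CPM in controls.

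Of 15 regulators of the response to carbohydrate, 0 were called (median 0.03). Arrdc4, an arrestin-domain gene induced by glucose, stood at 6.33 ± 1.73 and 8.86 ± 0.674 CPM (log2 fold change 0.49 ± 0.18, edgeR adjusted p = 0.893). Its relative Txnip, also induced by glucose, stood at 86.0 ± 4.19 CPM in controls and 107 ± 25.4 CPM with C2-AKT. The log2 fold change was 0.32 (edgeR adjusted p = 0.994). In C2-AKT replicates 2 to 5 it stood at 81.3, 123, 90.3 and 134 CPM, against 82.0 to 90.7 CPM in controls. Mlxipl, which encodes the factor that binds carbohydrate response elements, had a log2 fold change of -0.31, which did not pass (edgeR adjusted p = 0.9999), and Ppargc1a had 0.28.

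The members did not vary as 1 group over the 8 libraries. Of 28 pairs, 14 had a positive Pearson correlation of log2 CPM, the median was 0.02, and 0 passed after adjustment (exact permutation, two-sided). The strongest pair by r was Pfkfb3 and Pklr (Pearson r = 0.66, exact permutation p = 0.0752, adjusted p = 0.641; Spearman rho = 0.52, exact permutation p = 0.197), with r = 0.73 without the 2 libraries farthest from the median of Pfkfb3. By rho the strongest pair was Pfkfb1 and Pklr (Spearman rho = -0.81, exact permutation p = 0.0218, adjusted p = 0.610), with a Pearson r of -0.53. These values pool both genotypes. As deviations from the group means, Pfkfb1 and Pklr had rho = -0.48 and r = -0.23. Pfkfb3 and Pklr had r = 0.76 on those deviations, and 0 pairs passed after adjustment. On the scale of log2(TPM + 1), 25 of 28 pairs were positive with a median of 0.41. On that scale the 17.2% of counts in C2-AKT replicate 5 that fell in genes outside the test lower every other gene there by construction. Whether that library accounts for the positive pairs was not tested, since that scale was not repeated without it. Slc2a2, Gckr and Khk had an SD of log2 CPM within groups from 0.12 to 0.13, at the 23.8, 27.9 and 30.1 percentiles among the 1000 genes nearest to each in level.

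**Figure D4:**
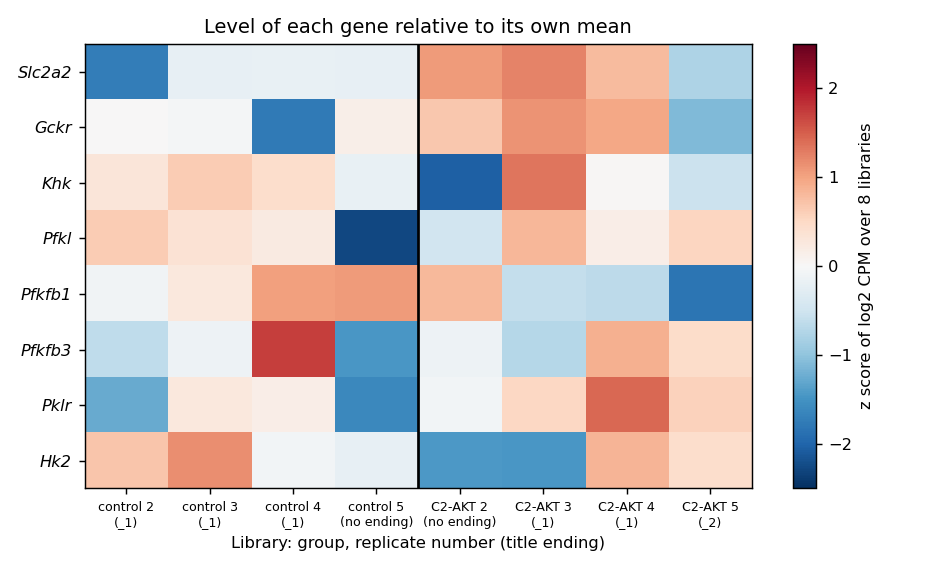
Log2 CPM of each gene (rows) in each library (columns, title ending in brackets) as a z score over the 8 libraries, red for above and blue for below the gene's own mean, with a line between control and C2-AKT. No column is red or blue throughout, and the 2 lowest cells of Pfkl are the libraries without a title ending.

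The gene most like each member over the 8 libraries was taken from 11541 genes by the highest Pearson r of log2 CPM, and no p is given because each was picked as the highest. For Slc2a2 this was Npc1 (r = 0.96, rho = 0.95, r = 0.97 without the 2 libraries farthest from the median), for Gckr Irf9 (0.96, 0.93 and 0.79) and for Khk Tmem141 (0.97, 0.90 and 0.80). For Pfkl it was Adck2 (0.97, 0.81 and 0.43), where the value rests on the 2 libraries without a title ending. Pfkfb1 was most like Iffo1 (0.98, 0.98 and 0.96), Pfkfb3 most like Hmces (0.97, 0.98 and 0.91) and Hk2 most like Bin2 (0.97, 0.81 and 0.85). The 3 genes most like Pklr were Akap13 (0.95, 0.90 and 0.84), Brd2 (0.95, 0.98 and 0.89) and Abr (0.95, 0.83 and 0.71).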

How the data were processed

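Polyadenylated liver RNA of 8 libraries was sequenced. HISAT2 2.1.0, StringTie 2.1.3b, Trimmomatic and bcl2fastq 2.20.0 are named in the submitters' processing notes, as are the builds mm10 and GRCm38. Tool settings and strandedness were not given in the sources used. The deposited table gives per library a whole-number read count, an FPKM and a TPM per gene, both of the latter scaled by the authors per the file headers. How the counts were made is not stated; since StringTie is named, the deposited values were treated as estimated counts, with no rounding needed. Columns were matched to libraries by title.

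Genes were filtered with edgeR 4.0.16 (filterByExpr, minimum count 10, total 15), scaled by TMM and tested with its quasi-likelihood test, two-sided, without covariates, with Benjamini-Hochberg adjustment over 15686 genes and a threshold of 0.05. Each SE is the log2 fold change over the square root of F. The test was checked on simulated data with larger changes than any member showed and the same dispersion for all genes. That check does not cover changes of the members' size. Ratios used TPM and exact permutation over 70 assignments; pairs of members used log2 CPM (prior count 2). Intervals are 95% intervals; depth sets counting error only. Members, gene lists and tests were chosen with earlier results of these data known. All members and up to 4 genes per list with the smallest p are named, except that some results are not reported here, with the closest genes by correlation (1 per member, 3 where its unadjusted p was under 0.05, among those averaging 1 CPM or more). Alternatives were other scalings and filters, DESeq2 1.42.0, limma 3.58.1 (voom, FPKM and TPM), a replicate block, title endings and each library left out.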

Additional observations from a re-analysis of the deposited data

Results flagged for a closer look

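Among the 4 libraries of a group, 1 value stood far from the others in 3 of 26 sets tested (16 of gene levels and 10 of ratios), by a gap above the 95% critical value of Dixon's test; chance gives this in about 1 in 20 sets. For Slc2a2, control replicate 2 was at 204 CPM, below 3 controls at 236 CPM each. For Gckr, control replicate 4 was at 96.4 CPM, below 3 controls at 111 to 113 CPM. For the share of Pklr in pyruvate kinase TPM, C2-AKT replicate 4 reached 91.9%, above 3 libraries at 89.8% to 89.9%.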

How the results depend on the processing

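No member was called under any of the 22 alternatives. The smallest adjusted p of a member was 0.470, for Pklr with the title ending as a term (edgeR). The log2 fold changes of Slc2a2, Gckr, Pklr, Pfkfb1 and Hk2 kept their direction in every alternative in which they were tested, between 0.31 and 0.53 for Pklr. Khk turned among titles ending in "_1" (0.034) and ran from -0.14 to 0.00021 with single libraries left out. Pfkfb3 was -0.18 among titles ending in "_1" and -0.19 to 0.50 with single libraries left out; Pfkl was -0.037 to 0.21. The cause was not tested. Over all genes, DESeq2 called 29 higher and 27 lower, library totals alone and the title ending as a term 1 higher each, titles ending in "_1" 17 lower, and single libraries left out gave 0 to 3 higher and 1 to 16 lower. The difference in the share of Pfkl (percentage points, C2-AKT minus control) was -1.51 among titles ending in "_1" and -1.02 to 1.17 with single libraries left out. The median of the pyruvate list was 0.0092 with the title ending as a term. With single libraries left out, list medians ran from -0.053 to 0.11 for the regulators, -0.014 to 0.080 for glycolytic enzymes, -0.13 to 0.17 for hexokinases, -0.10 to 0.028 for phosphofructokinase isoforms, -0.057 to -0.0066 for the pyruvate list, 0.036 to 0.24 for the opposing enzymes, 0.020 to 0.23 for transporters and 0.016 to 0.17 for the fructose list; that of transporters was 0.0091 on log2(FPKM + 1). The unadjusted p of Pklr was also above the threshold with library totals alone (0.0542) and in the limma fits of FPKM and TPM (0.0734 to 0.0836). Pathway lists gave 0 calls in every alternative. With the replicate number as a block, 0 members, 0 higher and 4 lower genes were called; same-numbered libraries deviated from their group means with correlations of -0.13 to 0.07, so the numbers were not taken as pairs. Hk2 was removed by the mean FPKM filter. At its counts a change as large as its interval allows, or larger, could go uncalled.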
